A study of Mus musculus with 43 samples.

Results

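Gene knockouts gained or lost by OT-I T cells in the spleen were described from 6 of the 43 samples of an in vivo CRISPR screen, of which 41 carry values. They were chosen by their labels as the 3 spleen libraries under IgG and the 3 libraries of T0, the T cells kept in vitro on the day of transfer (day 0). OT-I cells are CD8+ T cells of a transgenic mouse that carry 1 receptor, specific for a peptide of ovalbumin. All 6 libraries came from Cas9 knock-in OT-I cells transduced with a library of sgRNAs against metabolic genes and selected for CD90.1, the reporter of the library vector, before transfer. The T0 libraries are an aliquot of these cells. The spleen cells were sorted, again by CD90.1, at 7 days after transfer from mice under the control antibody IgG. These mice had orthotopic KPC_OVA tumours, a pancreatic cancer line that expresses ovalbumin. Spleen anti-PD-1 and primary tumour IgG, with 3 libraries each, were used only for direct comparison with the spleen IgG libraries. The labels call the libraries biological replicates, while the study's methods speak of independent sequencing experiments with many mice, so it is not known how many mice stand behind each library. The p-values therefore measure the spread between these libraries, part of which may be technical. Because only sgRNAs in genomic DNA were read, the cell type could not be checked against its markers.

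In a pooled knockout screen each cell carries an sgRNA that directs Cas9 to cut a gene, and the sgRNA in the DNA counts the descendants of that cell. An sgRNA against a gene that the cell needs to divide or survive becomes rare, whereas one against a gene that restrains the cell becomes frequent. The spleen is a secondary lymphoid organ in which activated CD8+ T cells circulate and expand, and such cells are known to draw heavily on ribosome production, nucleotide synthesis and respiration. A lower level in the spleen can come from slower division, from death or from fewer cells reaching or staying in the organ. Likewise, a higher level can come from faster division, better survival or more cells reaching or staying there. These cannot be told apart here.

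To give each knockout a level, log2(value + 1) of the batch-corrected signal was averaged across the 5 sgRNAs of a gene, and the median over 250 nontargeting sgRNAs in that library was subtracted. A level of 0 is thus that of a typical control sgRNA, and a change is the spleen IgG mean minus the T0 mean. Summed signals were 2882462 to 4228882 in T0 and 2348780 to 3589586 in spleen IgG, and the read depth behind them is unknown. The spleen libraries were more uneven than T0. Nontargeting sgRNAs had an SD of 1.08 to 1.11 in T0 and of 1.87 to 2.42 in spleen IgG on the log2 scale, and the most abundant 1% of sgRNAs held 3.71% to 3.86% of the T0 signal and 8.49% to 11.7% of the spleen signal. Of all sgRNAs, 12.8%, 12.4% and 5.09% lay at the lowest value shared by libraries of replicates 1, 2 and 3 in the spleen, against at most 0.0188% in T0. T0 replicate 3 stood apart. Across genes it correlated with T0 replicates 1 and 2 at r = 0.505 and 0.589, while those correlated with each other at r = 0.833. With the spleen IgG libraries, T0 replicate 1 correlated at r = 0.56 to 0.606, replicate 2 at 0.425 to 0.471 and replicate 3 at -0.105 to -0.051. Genes that were later depleted had a median level of 0.46 in T0 replicate 3, against -0.15 and -0.02 in replicates 1 and 2. At the threshold used below, 7 knockouts were enriched and 374 depleted with all 6 libraries, and 2 and 274 without T0 replicate 3. Leaving out T0 replicate 1 instead gave 4 and 287, and leaving out replicate 2 gave 2 and 282. What set replicate 3 apart was not tested.

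Loss of knockouts far outweighed gain in the spleen. Cells without *Pik3cd*, the catalytic subunit of PI3K delta, were gained most, and cells without ribosomal proteins, RNA polymerase subunits or proteasome subunits were among those lost most. Of 2078 knockouts, 7 (0.337%) were enriched and 374 (18%) were depleted at an adjusted p of at most 0.05 by limma with Benjamini-Hochberg adjustment, and 595 had an unadjusted p under 0.05. The 374 depleted knockouts changed by a median of -3.66 on the log2 scale. Of these, 299 lay below -2 and 166 below -4, and in all 374 the 3 spleen libraries were below the 3 T0 libraries, an order found in 35.2% of all knockouts. All 5 sgRNAs decreased for 302 of the depleted genes, 4 did for 60, and 3 or fewer did for 12. The median of all 2078 changes was -0.47, and the mean over nontargeting sgRNAs moved by -0.35 although their median was set to 0, so changes are read beside that shift. With the nontargeting mean as the zero, the median of all changes was -0.13 and 12 knockouts were enriched and 303 depleted.

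**Figure D1:**
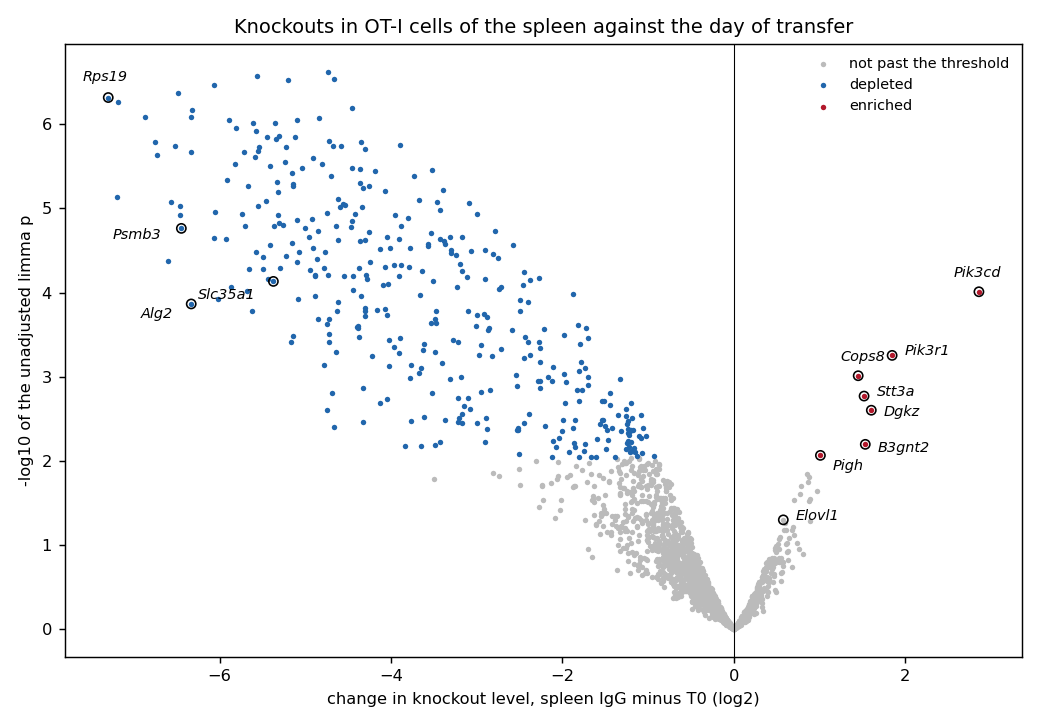
Change of each of 2078 knockouts between T0 and spleen IgG (horizontal axis, log2) against -log10 of the unadjusted limma p (vertical axis), with circles around the named genes. The 7 enriched knockouts lie between 1.01 and 2.86, and the 374 depleted ones reach -7.30 (*Rps19*).

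The subunits of PI3K delta led the gains. PI3K delta makes the lipid PIP3 below the T cell receptor and is built from a catalytic subunit, *Pik3cd*, and a regulatory subunit, often *Pik3r1*. The *Pik3cd* knockout had levels of 0.47, 0.46 and -0.61 in T0 and of 2.61, 3.20 and 3.09 in the spleen. Every spleen library was more than 2 log2 units above every T0 library. It rose by 2.86 (SE 0.381, adjusted p = 0.00114 in limma), the largest increase among all knockouts. Its 5 sgRNAs all increased, by 2.27 to 3.15, and the most abundant of them went from signals of 1479, 1186 and 353 in T0 to 6511, 4759.9 and 3932 in the spleen.

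The *Pik3r1* knockout lay at 0.72, 0.47 and -0.04 in T0 and at 1.88, 2.36 and 2.47 in the spleen, a rise of 1.85 (SE 0.322, adjusted p = 0.00474 in limma). Its 5 sgRNAs were less even, with increases of 0.61 to 3.35. Of the 12 PI3K subunits in the library, these 2 were enriched and 1 (8.33%) was depleted, beside 18% of all knockouts. The depleted one was *Pik3c3*, the class III kinase that serves endosomes and autophagy. Its change of -1.24 (SE 0.329, limma adjusted p = 0.0365) passed in 5 of 20 alternative settings. The other 9 did not pass, among them the class I catalytic subunits *Pik3ca*, *Pik3cb* and *Pik3cg* with changes of -0.44, 0.06 and -1.12. Of 32 phosphoinositide phosphatases and other lipid kinases, none was enriched and 3 (9.38%) were depleted, beside 18% of all knockouts. The lowest was *Pi4kb* (-3.19), which makes PI4P at the Golgi. *Mtmr1*, a phosphatase that removes the phosphate PI3K adds, had the highest change of that list at 0.89 without passing (limma adjusted p = 0.175).

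The *Dgkz* knockout was also gained. *Dgkz* encodes diacylglycerol kinase zeta, which removes the diacylglycerol made after receptor engagement. Its levels were 0.24, -0.23 and -0.46 in T0 and 0.88, 1.63 and 1.87 in the spleen. The groups did not overlap, and the rise was 1.61 (SE 0.360, adjusted p = 0.0174 in limma) with 5 of 5 sgRNAs up. Of the 10 diacylglycerol kinases *Dgkz* was the only one enriched, and 1 (10%) was depleted, beside 18% of all knockouts. The depleted one was *Dgkh* at -1.46 (SE 0.381, limma adjusted p = 0.0339), a call that held in 7 of 20 alternative settings. *Dgka*, the other main form of T cells, stood at -0.07. None of 14 phospholipase C genes, which produce diacylglycerol, was called in either direction (median change -0.29), and *Plcg1*, the form below the T cell receptor, had a change of -1.10 that did not pass.

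Knockouts of 4 further genes were enriched, and they act in protein glycosylation, GPI anchoring and protein turnover. *B3gnt2*, the main enzyme that extends poly-N-acetyllactosamine chains on glycoproteins, had levels of 0.78, 0.74 and 0.23 in T0 and of 1.70, 1.71 and 2.95 in the spleen. Spleen replicate 3 was the highest by more than 1 log2 unit, and the rise was 1.54 (SE 0.410, adjusted p = 0.0373 in limma) with 5 of 5 sgRNAs up. *Stt3a*, a catalytic subunit of the oligosaccharyltransferase that transfers N-glycans to nascent proteins, lay at -0.08, -0.11 and -0.15 in T0 and at 0.91, 1.45 and 1.88 in the spleen, a rise of 1.52 (SE 0.319, adjusted p = 0.0125 in limma). *Cops8*, a subunit of the COP9 signalosome that removes NEDD8 from cullin ubiquitin ligases, went from 0.47, 0.20 and 0.20 to 1.62, 2.06 and 1.55. The rise was 1.45 (SE 0.277, adjusted p = 0.00774 in limma), with 4 of 5 sgRNAs up and the fifth at -0.01. *Pigh*, part of the enzyme that starts GPI anchor synthesis, rose from 1.03, 0.70 and 0.71 to 2.16, 1.54 and 1.77, by 1.01 (SE 0.287, adjusted p = 0.0480 in limma). Each of these 4 genes had no overlap between T0 and spleen, an order with the spleen above that 3.27% of all knockouts showed.

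No call of gain passed under all settings. *Pik3cd* and *Pik3r1* passed in 19 of the 20 alternative settings and missed the threshold in the fit of all 41 libraries (adjusted p = 0.116 and 0.259 in limma), where no knockout was enriched. Without T0 replicate 1, 2 or 3 the count of enriched knockouts was 4, 2 and 2, and without spleen replicate 1, 2 or 3 it was 12, 13 and 13. *Cops8*, *Dgkz*, *Stt3a*, *B3gnt2* and *Pigh* passed in 15, 14, 13, 12 and 5 of the 20 settings. All 7 kept a positive change in each of them.

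**Figure D2:**
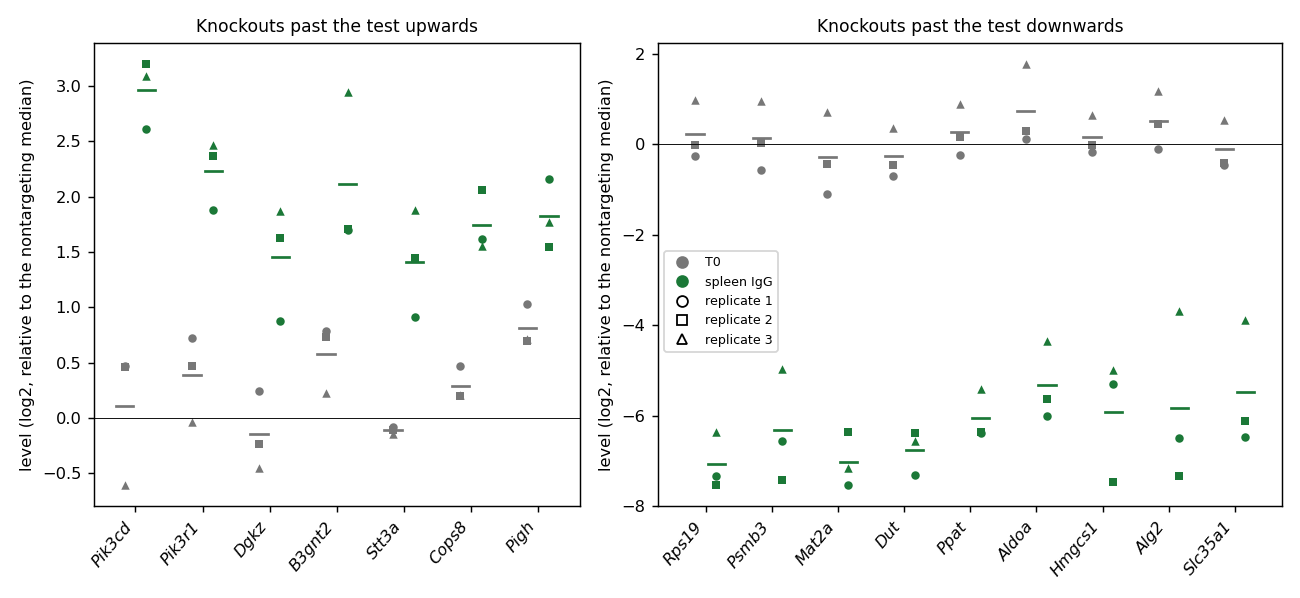
Levels in each library of the 7 enriched knockouts (left) and of 9 depleted ones (right), on a log2 scale where 0 is the nontargeting median. Grey symbols are T0 and green ones spleen IgG, the symbol shape gives the replicate and the bar is the mean of 3; the 2 groups do not overlap for any gene shown, and T0 replicate 3 is the highest T0 value of all 9 genes on the right.

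**Figure D3:**
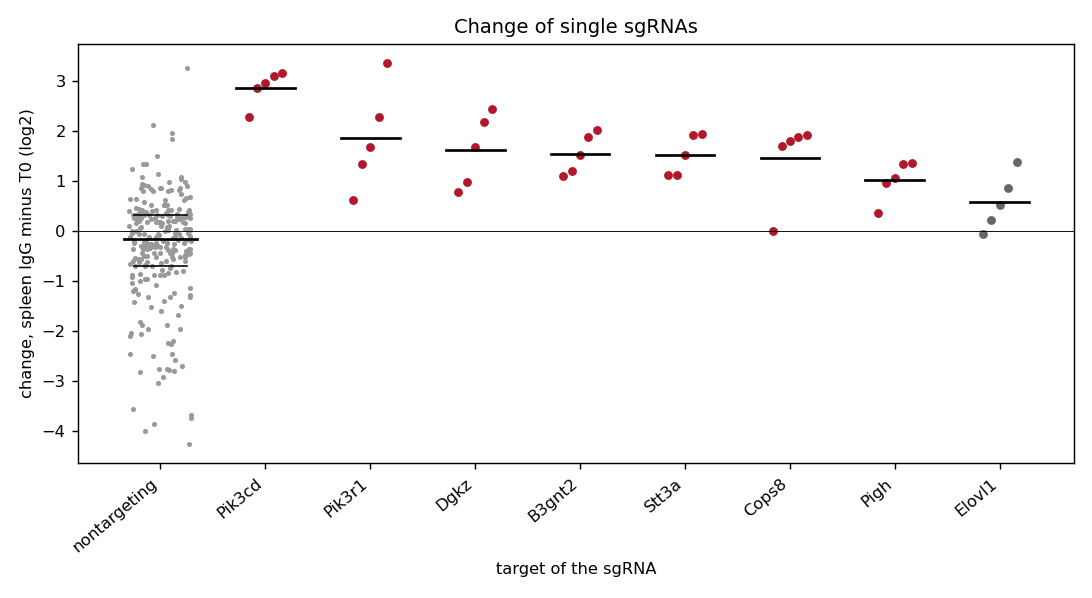
Change from T0 to spleen IgG (log2) of single sgRNAs against the 7 enriched genes and *Elovl1*, beside the 250 nontargeting sgRNAs. Bars give the mean of 5 sgRNAs, and for the nontargeting sgRNAs the median (-0.16) and the 25th and 75th percentiles (-0.70 and 0.31).

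Other members of the same pathways are given for context. *Cops8* was the only enriched member of the 4 COP9 genes, and *Cops6* had a change of -2.49 that did not pass (limma adjusted p = 0.0878), with spleen replicate 2 at -0.76 and the others at -4.19 and -3.80. Of 22 GPI anchor genes, *Pigh* was enriched and 1 (4.55%) was depleted, beside 18% of all knockouts. The depleted one was *Pigu* (-1.10, limma adjusted p = 0.0305), of the transamidase that attaches the anchor. The list had a median change of 0.19, above the -0.47 of all knockouts, and its next member, *Pigv* (0.89), did not pass. The cells were selected and sorted by the surface protein CD90.1, and what this did to the levels of GPI anchor knockouts was not tested. *Cs*, citrate synthase, also had a high change of 0.98 without passing (limma adjusted p = 0.0980). Its T0 levels were 0.77, 0.41 and 0.25 and its spleen levels 1.70, 1.79 and 0.87. *Elovl1*, the elongase of very long-chain fatty acids that the study followed up, had levels of -0.06, -0.17 and -0.32 in T0 and of 0.39, 0.41 and 0.40 in the spleen. The groups were separate, but the change of 0.58 (SE 0.249) did not pass (limma adjusted p = 0.174) under any of the 20 alternative settings.

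Protein and RNA synthesis genes were lost deeply. All 19 ribosomal protein genes were depleted, where 18% of all knockouts were, with changes from -7.30 (*Rps19*) to -4.10 (*Rps24*) and a median of -5.90. The *Rps19* knockout lay at -0.26, -0.02 and 0.98 in T0 and at -7.32, -7.54 and -6.35 in the spleen (SE 0.456, adjusted p = 0.000119 in limma). In the spleen its 5, 5 and 4 of 5 sgRNAs were at the shared lowest value, so its change is limited by that value and may understate the loss. The same limit holds for other knockouts near -6 and below, such as *Rpl9* (5, 4 and 5 of 5 sgRNAs), *Mat2a* (5, 4 and 4), *Dut* (5, 4 and 4) and *Atp6v0c* (5, 5 and 3). *Rpl9*, of the large subunit, fell by 6.88 (SE 0.462, limma adjusted p = 0.000119), from -0.72, -0.61 and 0.74 to -7.42, -6.56 and -7.25. The median level of the 19 genes was -0.30, -0.02 and 0.97 in T0 replicates 1 to 3 and -6.19, -5.99 and -5.08 in the spleen. In T0 replicates 1 and 2 these knockouts were thus near the nontargeting controls, and in T0 replicate 3 above them. The T0 medians of all knockouts were 0.20, 0.17 and 0.26, so the ribosomal median was below them in replicates 1 and 2.

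RNA polymerases I, II and III had 24 of 26 subunits depleted and a median change of -4.70. *Polr1d*, shared by polymerases I and III, fell by 5.41 (SE 0.438, limma adjusted p = 0.000152), from -0.08, -0.05 and 0.63 to -5.33, -4.44 and -5.96. The 2 that did not pass were *Polr3g* (-0.53) and *Polr3gl* (-0.61), alternative forms of one polymerase III subunit. All 10 proteasome genes were depleted (median -4.70), from *Psmb3* of the core particle (-6.45) to *Psmd1* of the regulatory particle (-3.31). Both cytosolic aminoacyl-tRNA synthetases in the library, *Mars* (-4.67) and *Eprs* (-3.18), and both mitochondrial ones, *Ears2* (-5.36) and *Mars2* (-4.30), were depleted. *Mars* varied most among them, at -7.08, -3.65 and -2.05 in the 3 spleen libraries. Of 12 replicative DNA polymerase and primase genes 9 were depleted, led by *Pold1* (-5.68), the catalytic subunit of polymerase delta, whereas the accessory subunits *Pole3*, *Pole4* and *Pold4* did not pass.

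**Figure D4:**
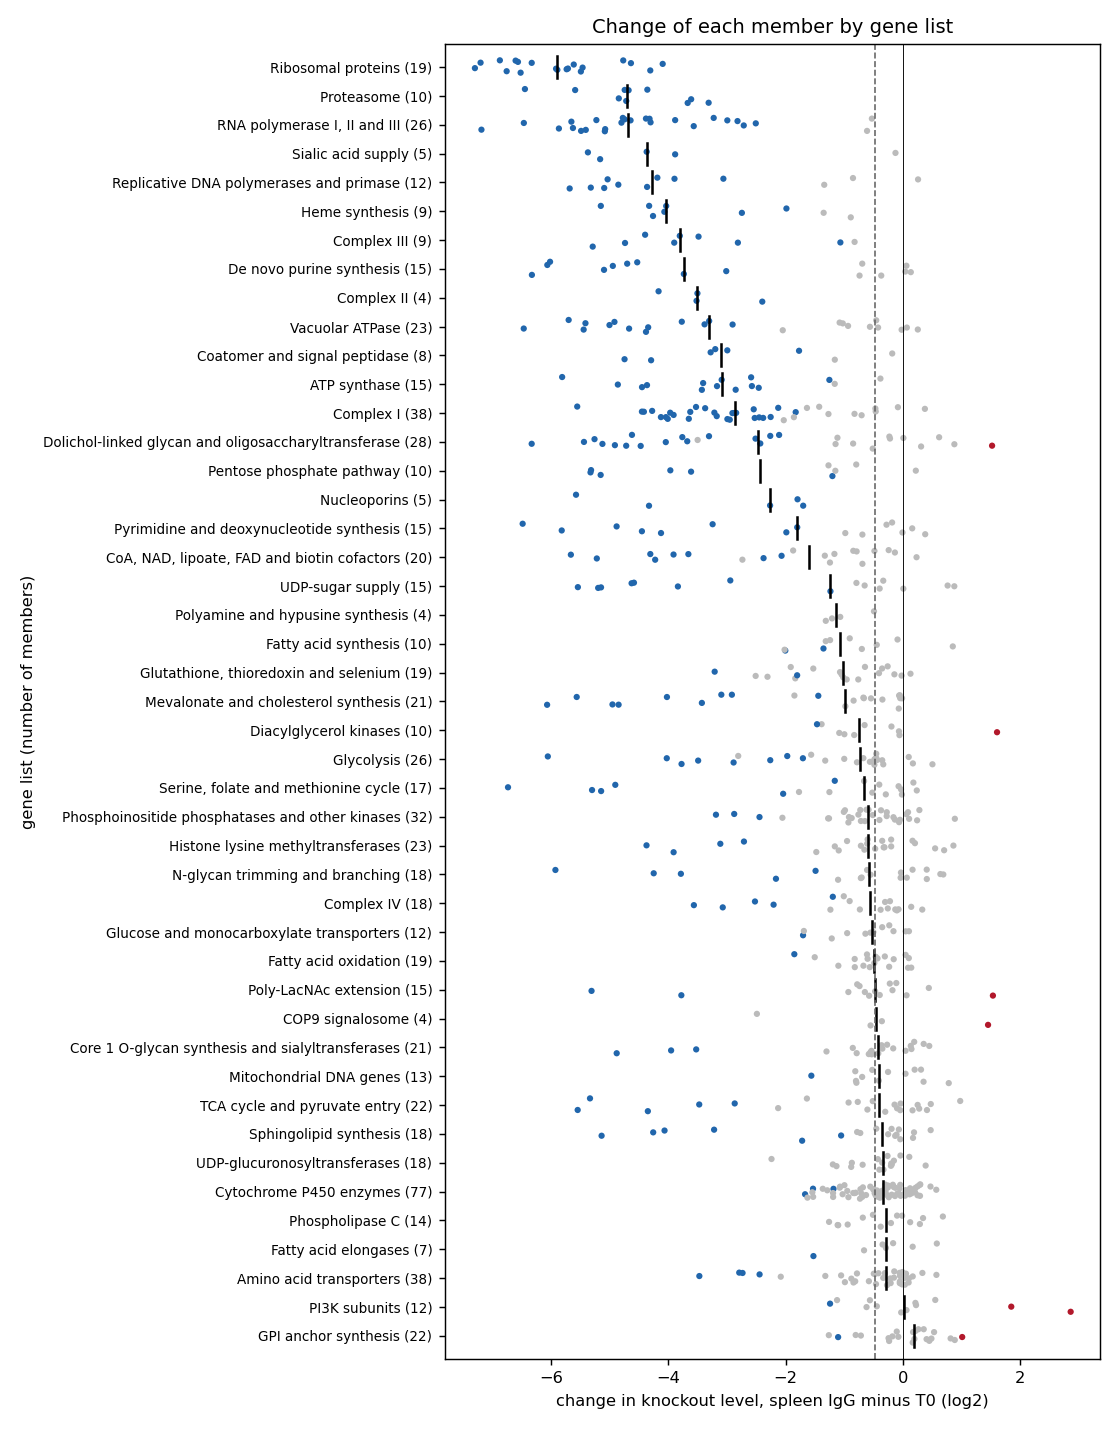
Change of each member (points, log2) by gene list, with the number of members in brackets, the list median as a black bar and the median of all 2078 knockouts (-0.47) as a dashed line; blue is depleted, red enriched and grey not past the threshold. Lists of at least 4 members are shown, from the lowest median (ribosomal proteins, -5.90) to the highest (GPI anchor synthesis, 0.19).

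The respiratory chain was lost widely but not evenly. Complex I, which takes electrons from NADH, had 27 of 38 genes depleted (median -2.86, lowest *Ndufa1* at -5.56). This list counts *Ndufa4* (-1.83, depleted), now assigned to complex IV, and its paralogue *Ndufa4l2* (-0.08, not past the threshold). Complex II, succinate dehydrogenase, had 4 of 4 (median -3.51), complex III 8 of 9 (median -3.81, lowest *Cyc1* at -5.29), and the ATP synthase 13 of 15 (median -3.09, lowest *Atp5a1* at -5.81). Complex IV differed from these in its counts. Its list, which leaves out *Ndufa4*, had 5 of 18 genes (27.8%) depleted, beside 18% of all knockouts. The list median of -0.56 was near that of all knockouts. Its depleted genes were *Cox7b* (-3.57), *Cox6c*, *Cox4i1*, *Cox5a* and *Cox5b*, while forms known from muscle or testis, such as *Cox6a2* (-0.30), *Cox8b* (-0.13) and *Cox7b2* (0.33), did not pass, and neither did the widely expressed *Cox6b1* (-0.73), *Cox8a* (-0.38) and *Cox7c* (-0.22). *Cycs*, somatic cytochrome c, which carries electrons to complex IV and was named after its values were seen, fell from -0.18, -0.02 and 0.63 to -4.80, -4.82 and -4.11 (change -4.72). The 13 protein genes of mitochondrial DNA itself formed a list drawn up after the values were seen. Of these, 1 (7.69%) was depleted, beside 18% of all knockouts. It was *COX2* (-1.56), a call that held in 9 of 20 alternative settings. The others ran from *ND4* (-0.81) to *ND5* (0.78) without passing. Whether the sgRNAs cut mitochondrial DNA was not tested, so these changes are not read as loss of those genes.

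The vacuolar proton ATPase, which acidifies lysosomes, was depleted in part. The 13 depleted of 23 genes included *Atp6v0c* (-6.47), *Atp6v1a* and *Atp6v1b2*, and the 10 that did not pass included the tissue-restricted *Atp6v1b1* (-0.93), *Atp6v0a4* (0.26), *Atp6v1g3* (-0.02) and also *Atp6v0a2* (-2.05). *Atp6v0c*, the proteolipid of the proton channel, was at -0.91, -0.49 and 0.41 in T0 and at -7.44, -7.54 and -5.40 in the spleen (SE 0.633, adjusted p = 0.000296 in limma). The list median was -3.30.

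In a list of TCA cycle and pyruvate entry genes 5 of 22 were depleted, close to the 18% of all knockouts. The median change of the list was -0.41. It leaves out succinate dehydrogenase, a TCA cycle enzyme counted above as complex II, where 4 of 4 genes were depleted (median -3.51). The 5 depleted genes of the list included *Ogdh* (-5.55), *Dlst* (-5.34) and *Dld* (-4.35), the 3 parts of the oxoglutarate dehydrogenase complex. The others were fumarase *Fh1* (-3.47) and *Idh3a* (-2.87). *Ogdh* lay at -0.74, -0.42 and 0.65 in T0 and at -6.16, -6.23 and -4.77 in the spleen. The pyruvate dehydrogenase genes *Pdha1* (0.41), *Pdhb* (0.25) and *Dlat* (0.28), which share *Dld* as a subunit, did not pass. Lipoate, the cofactor of both complexes, is made with *Lias* (-5.22) and attached with *Lipt1* (-3.91), which were among the 8 depleted of 20 cofactor genes together with *Ppcs*, *Ppcdc* and *Coasy* of coenzyme A synthesis, *Rfk* and *Flad1* of flavin synthesis and *Nampt* of NAD salvage.

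Glycolysis had 8 of 26 genes (30.8%) depleted, beside 18% of all knockouts (median change -0.73). *Aldoa*, the aldolase form of most tissues, had levels of 0.12, 0.29 and 1.78 in T0 and of -6.004, -5.63 and -4.35 in the spleen, a change of -6.06 (SE 0.585, limma adjusted p = 0.000296). The other depleted steps were *Tpi1* (-4.03), *Gpi1* (-3.78), *Pgam1* (-3.49), *Gapdh* (-2.89), *Hk2* (-2.26), *Eno1* (-1.97) and *Pgk1* (-1.71), and *Pkm* (-2.81) and *Ldha* (-1.56) did not pass. The pentose phosphate pathway had 6 of 10 depleted (median -2.44), with *Tkt* (-5.33) and *Pgd* (-5.32) lowest. Of 12 glucose and monocarboxylate transporters 1 (8.33%) was depleted, beside 18% of all knockouts. It was the lactate transporter *Slc16a1* (-1.70), and *Slc2a1* had a change of -1.69 that did not pass. An entry for a *Gapdh* pseudogene, *Gapdh-ps15*, had a change of -6.33, and its sgRNAs may also match *Gapdh* or other copies. Of 32 predicted or pseudogene entries in the library, 10 were depleted and 0 enriched, a higher share of depletion than the 18% of all knockouts. What their sgRNAs cut is uncertain.

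Purine and pyrimidine synthesis was lost at many steps. Of 15 purine genes 9 were depleted (median -3.74). *Ppat*, which commits to the pathway, fell from -0.23, 0.17 and 0.89 to -6.39, -6.36 and -5.42 (change -6.33, SE 0.414, limma adjusted p = 0.000119), and *Adsl* (-6.07) and *Paics* (-6.02) followed. *Impdh2* (-3.01) was depleted and its paralogue *Impdh1* (0.14) was not. Of 15 pyrimidine and deoxynucleotide genes 8 were depleted, led by *Dut*, which destroys dUTP, at -6.49 (SE 0.398, limma adjusted p = 0.000119), and by both subunits of ribonucleotide reductase, *Rrm2* (-5.82) and *Rrm1* (-4.88). *Dhodh*, the mitochondrial step of pyrimidine synthesis, had a change of -0.28 and did not pass, while *Cad*, which starts the pathway, was depleted at -1.80.

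Methyl donor and folate genes were depleted in 6 of 17 cases (35.3%, beside 18% of all knockouts). *Mat2a*, which makes S-adenosylmethionine, was lowest at -6.74 (SE 0.522, limma adjusted p = 0.000129), with levels of -1.10, -0.45 and 0.72 in T0 and of -7.52, -6.37 and -7.16 in the spleen. *Mthfd1* (-5.30) and *Ahcy* (-5.15) followed, whereas the mitochondrial folate enzymes *Shmt2* (-0.29) and *Mthfd2* (-0.52) did not pass. Heme synthesis had 7 of 9 depleted (median -4.04). *Fech*, which inserts iron, was lowest at -5.15, *Alas1* was depleted at -4.26, and *Alas2*, the erythroid form of that enzyme, stood at -0.89 without passing. Of 4 polyamine genes none was called, with changes from -1.31 to -0.49. Of 19 glutathione, thioredoxin and selenium genes, *Txnrd1* (-3.21) and *Gss* (-1.80) were depleted (10.5%, beside 18% of all knockouts). *Gpx4*, which protects lipids from peroxidation, had a change of -2.51 that did not pass.

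In the mevalonate pathway 9 of 21 genes (42.9%) were depleted, beside 18% of all knockouts (median change -0.98). They included the shared steps from *Hmgcs1* (-6.07) through *Mvk*, *Pmvk*, *Mvd* and *Idi1* to *Fdps* (-3.43), the isoprenoid branch enzyme *Ggps1* (-4.95) and *Sc5d* (-1.44), a late step of cholesterol synthesis. The other cholesterol steps *Fdft1* (-0.66), *Sqle* (-1.85), *Lss* (-0.54) and *Dhcr7* (-0.07) did not pass. Sphingolipid synthesis had 6 of 18 (33.3%) depleted, with *Kdsr* (-5.14), *Sptlc2* (-4.26), *Ugcg* (-4.07) and *Sptlc1* (-3.22) lowest. None of the 6 ceramide synthases *Cers1* to *Cers6* was called. Among fatty acid genes, 1 of 19 oxidation genes (*Etfa*, -1.85), 1 of 7 elongases (*Elovl4*, -1.53) and 2 of 10 synthesis genes (*Mcat* and *Mecr*, both mitochondrial) were depleted. These shares were 5.26%, 14.3% and 20%, beside the 18% of all knockouts. The calls of *Etfa* and *Elovl4* each held in 9 of 20 alternative settings. *Fasn*, which makes palmitate in the cytosol, had a change of -0.45, and *Cpt1a*, which admits fatty acids to mitochondria, one of -0.46.

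Protein glycosylation held depleted and enriched members side by side. Of 28 genes for the dolichol-linked glycan and its transfer, 16 were depleted (median -2.47) and *Stt3a* was enriched. *Alg2*, an early mannosyltransferase, fell from -0.11, 0.44 and 1.18 to -6.48, -7.32 and -3.68 (change -6.33, SE 0.885, limma adjusted p = 0.00151), with spleen replicate 3 well above the others. *Dpagt1* (-5.44), *Dhdds* (-4.91) and the oligosaccharyltransferase subunits *Rpn1* (-4.47), *Dad1* (-3.76) and *Ddost* (-3.31) were depleted as well, while *Stt3b* (-0.51), the other catalytic subunit, did not pass. In N-glycan trimming and branching 5 of 18 (27.8%) were depleted, beside 18% of all knockouts. *Mgat1*, which opens the route to complex N-glycans, was lowest at -5.93 (SE 0.637, limma adjusted p = 0.000440), and *Mgat5* (0.64), which adds a late branch, did not pass. The galactosyltransferase *B4galt1* (-5.31), which works in alternation with *B3gnt2*, was depleted. The list of 15 poly-N-acetyllactosamine genes had 1 enriched and 2 (13.3%) depleted members, where 18% of all knockouts were depleted.

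Of the 5 genes that supply sialic acid, 4 were depleted. This list and those of core 1 O-glycans and UDP-sugars were drawn up after the values were seen, so their counts are a description. Sialic acid is the sugar that caps many surface glycans of T cells. *Gne* starts its synthesis, *Nans* and *Nanp* complete it, *Cmas* activates it and *Slc35a1* carries it into the Golgi. *Slc35a1* had levels of -0.46, -0.41 and 0.54 in T0 and of -6.47, -6.11 and -3.88 in the spleen, a change of -5.37 (SE 0.685, adjusted p = 0.000913 in limma). *Gne* (-5.17), *Nans* (-4.37) and *Cmas* (-3.89) were depleted too, and *Nanp* stood at -0.13. Of 21 genes for core 1 O-glycans and sialyltransferases, 3 (14.3%) were depleted, a share below the 18% of all knockouts. *C1galt1c1*, the chaperone of the core 1 enzyme, changed by -4.88, that enzyme, *C1galt1*, by -3.53 and the sialyltransferase *St3gal1* by -3.95 (SE 0.387, limma adjusted p = 0.000296). *St3gal1* lay at -0.19, 0.14 and 0.20 in T0 and at -3.55, -3.48 and -4.69 in the spleen. The supply of UDP-sugars had 8 of 15 depleted, among them *Ugp2* (-5.55), which makes UDP-glucose, and the UDP-galactose carrier *Slc35a2* (-5.15).

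**Figure D5:**
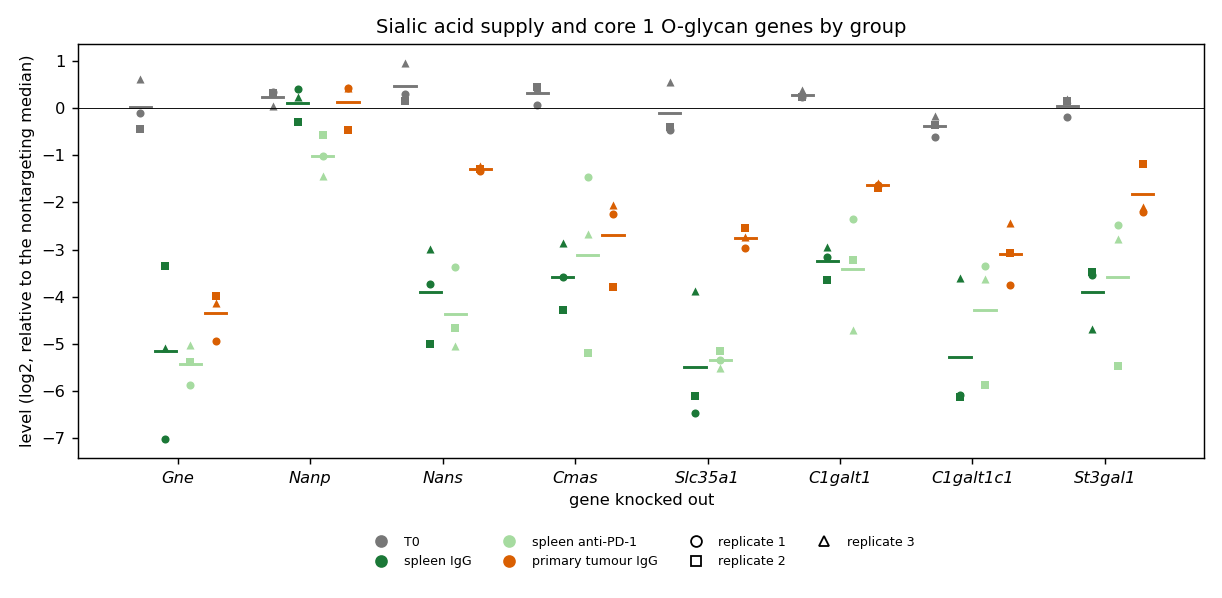
Levels of 8 sialic acid and core 1 O-glycan knockouts (log2, 0 is the nontargeting median) in T0, spleen IgG, spleen anti-PD-1 and primary tumour IgG. Symbols are single libraries, shaped by replicate, and bars are means of 3; all spleen IgG values of *Nans*, *Slc35a1*, *C1galt1* and *St3gal1* lie below all primary tumour values, and *Nanp* stays near 0 in spleen IgG.

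Nuclear pore, vesicle and transporter genes formed 3 more lists drawn up after the values were seen. All 5 nucleoporins of the library were depleted (median -2.27, lowest *Nup93* at -5.58), as were 6 of 8 coatomer and signal peptidase genes (median -3.10, lowest *Copa* at -4.75). Of 38 amino acid transporters 4 (10.5%) were depleted, a share below the 18% of all knockouts. *Slc7a5* (-3.47) and *Slc3a2* (-2.44) form the large neutral amino acid exchanger of activated T cells, *Slc38a1* (-2.74) takes up glutamine, and *Slc6a6* (-2.79) carries taurine. *Slc7a5* fell from 0.07, 0.12 and 0.22 to -4.26, -3.63 and -2.12 (SE 0.526, limma adjusted p = 0.00232). Of 23 histone lysine methyltransferases, *Kmt2a* (-4.37), *Setd1a* (-3.91), *Kmt5a* (-3.11) and *Dot1l* (-2.71) were depleted, a share of 17.4% beside the 18% of all knockouts. Of 77 cytochrome P450 genes 3 (3.9%) were depleted, and of 18 UDP-glucuronosyltransferases 0, beside the 18% of all knockouts. The medians of these 2 lists were -0.34 and -0.34, and none of their members was enriched.

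The spleen was then compared with the primary tumour of the same treatment. *Nans* and *Slc35a1* knockouts had lower levels and *Pgk1* and *Dhodh* knockouts higher levels in the spleen, but whether these differences passed depended on whether libraries were paired by replicate number. Without pairing, no knockout differed at an adjusted p of at most 0.05 (0% of 2078 in either direction, lowest adjusted p = 0.243 in limma), and 139 (6.69%) had an unadjusted p under 0.05, 48 of them higher and 91 lower in the spleen. With the replicate number as a block, 2 were higher (0.0962%) and 2 lower (0.0962%) by limma, and 184 had an unadjusted p under 0.05. Without spleen replicate 3 and without the block, 0 were higher and 1 was lower. The study's authors had corrected the values for batch effects between organs before deposit. How far that correction reduced or changed differences between spleen and tumour was not tested.

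*Nans* was at -1.34, -1.29 and -1.23 in the tumour and at -3.73, -5.003 and -2.98 in the spleen, a difference of -2.62 (SE 0.510, limma adjusted p = 0.243 without and 0.0276 with the block). *Slc35a1* was at -2.98, -2.55 and -2.74 in the tumour, a difference of -2.73 (limma adjusted p = 0.418 without and 0.0276 with the block). Of the sialic acid supply list 2 of 5 genes, and of the core 1 and sialyltransferase list 3 of 21, had an unadjusted p under 0.05 without the block, beside 6.69% of all knockouts. *Gne*, *Cmas* and *Nanp* differed by -0.80, -0.87 and -0.01 without passing, and so did *St3gal1* by -2.07 (limma adjusted p = 0.418 without and 0.0573 with the block). The *Slc6a6* knockout, depleted in the spleen, lay at 0.15, -0.79 and -0.32 in the tumour (difference -2.13, limma adjusted p = 0.243 without and 0.0569 with the block).

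In the other direction, *Pgk1* was at -3.69, -4.52 and -4.13 in the tumour against -1.68, -1.99 and -1.62 in the spleen, a difference of 2.35 (limma adjusted p = 0.243 without and 0.0276 with the block). *Dhodh* was at -1.90, -1.98 and -2.67 against 0.50, -0.39 and 0.25, a difference of 2.30 (limma adjusted p = 0.243 without and 0.0374 with the block). The groups did not overlap for either gene. Of the enriched knockouts none passed in either fit. Without the block, *Pik3cd* was 1.49 above its tumour level (SE 0.411, limma adjusted p = 0.467), *Stt3a* 1.63 and *Cops8* 1.54 (both with limma adjusted p = 0.444), while *Dgkz* differed by 0.20 (SE 0.415). *Stt3a* lay at -0.50, 0.14 and -0.29 in the tumour. The ribosomal list had a median difference of -0.21. The spleen libraries also held more sgRNAs at the shared lowest value (5.09% to 12.8%) than the tumour libraries (2.78% to 3.94%), and for nontargeting sgRNAs the shares were 2% to 9.2% and 0.4% to 1.6%. The part of this in the differences was not tested.

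Between IgG and anti-PD-1 in the spleen no knockout differed at an adjusted p of at most 0.05 (0% of 2078 in either direction, lowest adjusted p = 0.740 in limma), and 96 (4.62%) had an unadjusted p under 0.05, 59 of them higher under IgG and 37 lower. *Pik3cd* lay at 2.99, 3.57 and 4.07 under anti-PD-1, a difference of -0.57 (SE 0.588), and *Pik3r1* at 2.15, 1.86 and 2.71, a difference of -0.003 (SE 0.578). *Dgkz*, *B3gnt2* and *Stt3a* differed by -0.20, -0.26 and 0.16, each within 1 SE. *Cops8* differed by 0.31 (SE 0.575) and *Pigh* by 0.79 (SE 0.562), the largest difference of the 7 enriched knockouts. In spleen anti-PD-1 replicate 2, 24.1% of all sgRNAs and 18.4% of the nontargeting sgRNAs were at the shared lowest value.

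Single sgRNAs passed the test less often than genes. Of 10640 sgRNAs, 4 (0.0376%) were enriched and 321 (3.02%) were depleted by limma. The enriched ones were 2 against *Pik3cd* (3.09 and 2.96), 1 against *Ugt8a* (2.43), whose gene had a change of -0.02, and 1 nontargeting sgRNA (3.25). Among the 250 nontargeting sgRNAs 1 was depleted as well, and their changes ran from -4.26 to 3.25. Of the 321 depleted sgRNAs, 311 belonged to depleted genes. The count of enriched sgRNAs was 0 without any 1 of the T0 libraries and 15 without any 1 of the spleen libraries, and that of depleted sgRNAs was 497, 556 and 621 without spleen replicate 1, 2 and 3.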

How the data were processed

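Genomic DNA of sorted OT-I T cells was sequenced over the sgRNA insert. Per the study's methods, the authors counted sgRNAs with MAGeCK-VISPR, normalized to nontargeting sgRNAs and removed batch effects between organs with ComBat. The deposited signal is therefore not whole and keeps no read depth, and the methods' count model could not be run on it, so no counting interval is given. What the correction did to differences between organs, or between the spleen and T0, was not tested. Values that libraries of a replicate number shared as their lowest (tolerance 1e-09) were read as undetected.

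Groups came from the sample labels. log2(value + 1) was averaged over 5 sgRNAs per gene and centred on the nontargeting median. The 3 spleen IgG and 3 T0 libraries were compared with limma 3.58.1 in R 4.3.3, with Benjamini-Hochberg adjustment over 2078 genes and a threshold of 0.05, and likewise spleen IgG with primary tumour IgG and with spleen anti-PD-1. limma pools the spread of both groups although the spleen libraries varied more, and on simulated data with such unequal spread the fit called more unchanged genes than its threshold implies, so adjusted p-values may be too small. Spleen IgG and primary tumour IgG libraries of the same replicate number deviated together from their group means (r = 0.15, 0.143 and 0.124 across genes), so the fit with the replicate number as a block is given beside that comparison. The pairing was found from the data and is not stated in the labels. Genes were named by rule where they were among the 10 largest increases or 15 largest decreases past the threshold with at least 4 of 5 sgRNAs in that direction and no overlap of libraries (filled up with increases that did not pass), were the extreme members of a list, or were *Pik3cd*, *Pik3r1*, *Dgkz*, *B3gnt2*, *Elovl1*, *Rpl9* and *Polr1d*. Other genes named were chosen after their values were seen. The comparison, the members and the lists were chosen with earlier results of these data known. Of the symbols, 2039 matched the reference table, 33 matched by an older symbol and 6 did not. Alternatives changed the pseudocount (10), the summary over sgRNAs, the centring, the libraries fitted, a filter on low sgRNAs, the lowest values, the variance model and the replicate block, and left out each library. The labels of 1 library of the all-library fits, peritoneal metastases anti-PD-1 replicate 2, disagree on its tissue. sgRNA sequences were not used here. The values of a few genes are not reported here.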

Additional observations from a re-analysis of the deposited data

How the results depend on the processing

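The 83 named depleted genes kept their direction in all 1660 values under alternatives, and 181 of these no longer passed. The 7 enriched genes kept theirs in all 140 values, and 43 no longer passed. The count of enriched knockouts (7) was 12 with the nontargeting mean as zero, 14 with the median of all sgRNAs, 2 without centring, 0 with all libraries fitted, 2 without the lymph nodes, 14 with a mean-variance trend and robust prior, and 4 with library weights. It ran from 2 to 13 when 1 library was left out. The count of depleted knockouts (374) was 191 with the median of the sgRNAs, 668 without centring, and 274 to 482 with 1 library left out. Against the primary tumour, 2 knockouts were higher with log2(value + 10), 1 with the median of the sgRNAs and 2 with the replicate block, while 3 were lower with the median, 2 without centring, 2 with the block, and 0 to 1 with 1 library left out. Against spleen anti-PD-1, 2 were higher with the median. Enriched sgRNAs (4) numbered 12 with log2(value + 10), 0 with the block and 0 to 15 with 1 library left out, and depleted sgRNAs (321) numbered 742 with log2(value + 10) and 256 to 621 with 1 library left out. The cause of these changes was not tested.

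Deviations of T0 and spleen IgG libraries of the same replicate number correlated at -0.012, -0.164 and 0.055, with only replicate 3 matching best with its own number, and those of spleen anti-PD-1 and spleen IgG at -0.059, -0.094 and -0.056, so in these comparisons the numbers were not read as pairs. With the replicate block, 0 knockouts differed between spleen IgG and anti-PD-1, and against T0 6 knockouts were enriched and 389 depleted. An alternative chosen after seeing the data, without lymph nodes and with the nontargeting mean as zero, gave 6 and 283.

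Of 720 values of 36 named genes that did not pass, 38 passed and 32 turned sign. Without centring these were *Acads* (-0.28), *Atp6v0a4* (-0.16), *Cox7b2* (-0.089), *Ctps2* (-0.038), *Gpx3* (-0.29), *Hlcs* (-0.19), *Impdh1* (-0.28), *Mat1a* (-0.18), *Ndufv3* (-0.044), *Pold4* (-0.16), *Slc16a3* (-0.32), *Tktl1* (-0.20) and *Ugt2b37* (-0.031). With the median of the sgRNAs they were *Gpx3* (-0.63), *Hsd17b7* (0.25) and *Polr3g* (0.044). *Hsd17b7* also turned to 0.33 with the nontargeting mean, with or without the lymph nodes, and to 0.28 with the median of all sgRNAs. With 1 library left out, the changes crossed 0 for *Gpx3* (-0.22 to 0.81), *Hlcs* (-0.032 to 0.65), *Hsd17b7* (-0.16 to 0.070), *Slc16a3* (-0.15 to 0.40), *Acads* (-0.037 to 0.33), *Impdh1* (-0.065 to 0.32), *Mat1a* (-0.18 to 0.51), *Pold4* (-0.14 to 0.61), *Tktl1* (-0.27 to 0.60) and *Cox7b2* (-0.22 to 0.87).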
